A study of Mus musculus with 12 samples.

Results

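The genes described here encode enzymes that place or remove methyl groups on histone tails in the mouse oocyte, together with Cxxc1, a subunit that guides such an enzyme to DNA. They are 10 of the 55573 genes in each count file: Kmt2b, Kmt2d, Cxxc1, Setdb1, Ehmt2, Setd2, Kdm1a, Kdm1b, Kdm4a and Kdm5b. Members were taken by symbol through the GENCODE mouse M21 annotation of the GRCm38 genome, and all 10 had a row in all 12 libraries. The study was about single-oocyte RNA-seq and its scaling by spike-in, and the libraries used here are poly(A) libraries of whole oocytes and of fractions of oocytes.

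All oocytes were fully grown and at the germinal vesicle (GV) stage, with the nuclear envelope intact, and came from 1 healthy B6D2F1 female 12 weeks old. They were held in M2 medium with milrinone. Whole oocytes were amplified for 10, 14 or 18 cycles, with 2 oocytes and 2 libraries for each. Lysates of another 2 oocytes were diluted to 1/2, 1/4 and 1/8 of an oocyte, again with 2 libraries each, and the methods, though not the labels, give 18 cycles for them. No gene was altered and no treatment was compared. RNA of the ERCC spike-in mix, a set of synthetic transcripts, was added in equal amount to every whole or diluted sample. Libraries of a group are different oocytes or lysates of 1 mouse, so the p-values below measure only the spread between these samples.

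Gene counts per library were 11597144 and 9189672 at 10 cycles, 12349577 and 13806199 at 14, and 3017069 and 1706478 at 18. The fractions had 4024670 and 3598549 in 1/2, 4027907 and 5049518 in 1/4, and 11404262 and 1702062 in 1/8. Levels are given as CPM, the count of a gene scaled to the same total of gene counts in every library. Intervals and floors cover counting error only, because reads copied from the same molecule cannot be told apart here.

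Methylation of histone H3 is read by position. Methylation of lysine 4 (H3K4) marks promoters and is placed by the KMT2 and SETD1 enzymes in COMPASS-type complexes, H3K9 methylation marks silent chromatin, and H3K36 methylation is laid down along transcribed genes. Growing oocytes accumulate broad H3K4 methylation through KMT2B, and H3K36 methylation placed by SETD2 guides the DNA methylation of the oocyte, while the demethylase KDM1B clears H3K4 methylation at imprinted regions.

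The libraries carried the RNA of oocytes. All 13 oocyte markers had a count in some library, 12 or 13 of them in each, and their summed level lay between 7047.3 and 31628.0 CPM, with the growth factor gene Gdf9 the most abundant per length (1578.7 to 5874.0 CPM). This sum was not even across groups: 31572.7 and 27334.2 CPM at 10 cycles, 30627.4 and 31628.0 at 14, 8725.4 and 7047.3 at 18, 10290.8 and 10286.9 in 1/2, 15576.3 and 16905.2 in 1/4, and 23784.2 and 23220.7 in 1/8. Of the 16 granulosa and cumulus cell markers, 15 had a count in some library, Tnfaip6 was at 0 in all of them, and the sum was 218 and 75.5 CPM at 10 cycles, 97.9 and 169 at 14, 74.2 and 27.0 at 18, 34.0 and 30.8 in 1/2, 53.9 and 55.1 in 1/4, and 78.8 and 72.9 in 1/8. It too was lower at 18 than at 10 or 14 cycles. Cyp19a1 was the most abundant of these per length (5.97 to 46.1 CPM). Of the 9 blood and immune markers, Hba-a1, Hba-a2 and Hbb-bt were at 0 in all 12 libraries, and the sum reached at most 8.71 CPM, with Lyz2 the most abundant (0 to 4.92 CPM).

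Per length, the order of the 10 genes was led by Kdm1b and Setdb1. Averaged over 12 libraries, the level per kb of exons was 41.9 ± 16.7 CPM for Kdm1b and 38.9 ± 12 for Setdb1 (SD). Kdm1b was above Setdb1 in 6 of 12 libraries, so the 2 genes did not differ beyond their spread. Next came Kmt2d at 17.0 ± 4.71, Cxxc1 at 16.8 ± 5.37, Setd2 at 12.4 ± 5.97, Kdm1a at 10.1 ± 7.81, Kdm4a at 9.05 ± 2.78 and Kmt2b at 7.68 ± 1.56 CPM per kb. Within this middle group no neighbouring pair was separated by more than the sum of its SDs, and each gene was above its next in only 6 to 9 of 12 libraries. Setdb1 was above Kmt2d, and Kmt2b above Ehmt2, in 12 of 12. Ehmt2 (0.503 ± 0.423) and Kdm5b (0.460 ± 0.309) formed a low pair, with Ehmt2 higher in 5 of 12 libraries. Among 17657 protein-coding genes with a count, Kdm1b and Setdb1 stood at percentiles 91.9 and 91.3 by mean level per kb, and Ehmt2 and Kdm5b at 36.6 and 35.9. With the longest coding transcript in place of all exons, Setdb1 ranked above Kdm1b, Cxxc1 was rank 3, Kdm1a rank 4, Kmt2d rank 5 and Setd2 rank 6, and the low pair changed places. The order also depended on the libraries: over those at 10 and 14 cycles alone, Setd2 (19 CPM per kb) was above Cxxc1 (12.4), Kdm4a (11.7) above Kdm1a (10.4) and Kdm5b (0.622) above Ehmt2 (0.401).

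**Figure D1:**
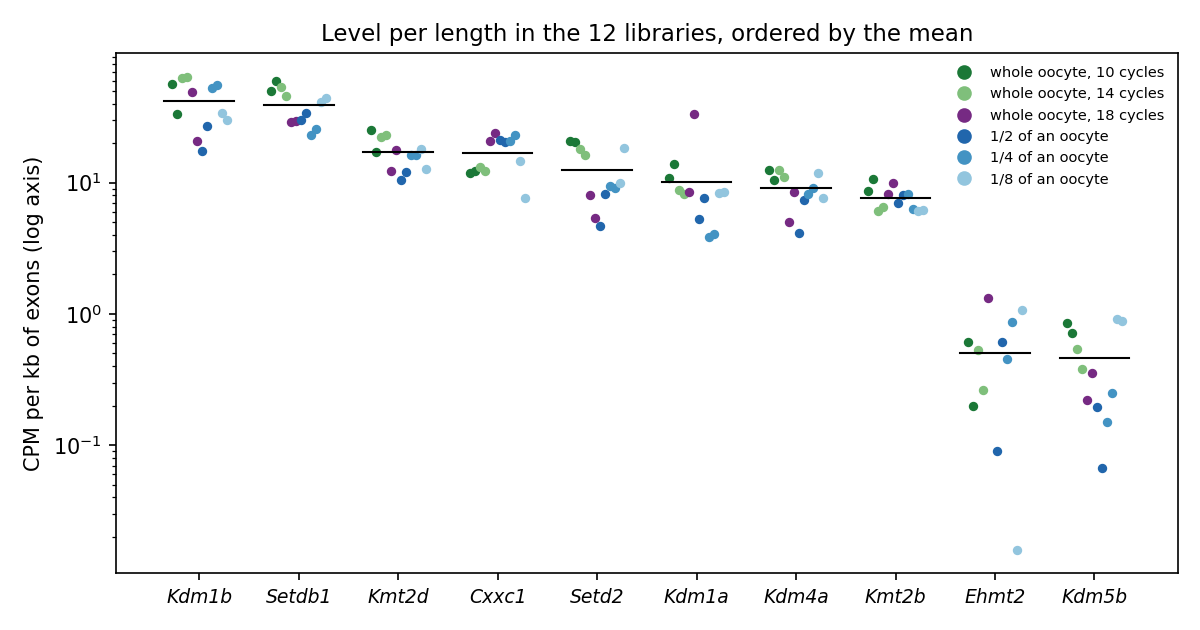
Level of each gene as CPM per kb of exons on a log axis, 1 point per library coloured by group, with the mean over 12 libraries as a black line. Kdm1b (mean 41.9) and Setdb1 (mean 38.9) lie highest and Ehmt2 (0.503) and Kdm5b (0.460) lowest; the Ehmt2 library at 0 counts is not drawn.

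The H3K4 methyltransferase genes were both well measured. Kmt2b (ENSMUSG00000006307, GRCm38 chromosome 7 from 30568858 to 30588726) had 83.4 and 102 CPM at 10 cycles, 58.6 and 62.6 at 14, 78.9 and 96.1 at 18, 67.6 and 77.5 in 1/2, 78.2 and 60.4 in 1/4, and 58.8 and 59.9 in 1/8. It was the steadiest of the 10, with a coefficient of variation of 20.3% over the 12 libraries. Kmt2d (ENSMUSG00000048154, chromosome 15 from 98831669 to 98871204), which acts at enhancers, averaged 423 ± 115 CPM at 10 cycles, 452 ± 9.56 at 14, 299 ± 77.6 at 18, 223 ± 21.7 in 1/2, 325 ± 0.455 in 1/4 and 307 ± 72.6 in 1/8 (SD, n = 2 each). Its lowest library was in 1/2 and its highest at 10 cycles, 2.42-fold apart.

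Cxxc1 (ENSMUSG00000024560, chromosome 18 from 74216124 to 74221496) encodes the CpG-binding subunit of the SETD1 complexes. It had 46.8 and 48.0 CPM at 10 cycles, 51.7 and 47.8 at 14, 80.9 and 93.8 at 18, 82.5 and 79.5 in 1/2, 81.7 and 90.5 in 1/4, and 57.8 and 30.0 in 1/8. Thus the 6 libraries of whole oocytes at 18 cycles, 1/2 and 1/4 lay above every library at 10 and 14 cycles and above both of 1/8. The lowest value rests on 51 counts (95% Wilson interval 22.8 to 39.4 CPM).

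The H3K9 methyltransferase genes differed widely in level. Setdb1 (ENSMUSG00000015697, chromosome 3 from 95323525 to 95357202), which silences retroviral elements with TRIM28, had 343 and 410 CPM at 10 cycles, 369 and 316 at 14, 199 and 203 at 18, 204 and 234 in 1/2, 159 and 176 in 1/4, and 283 and 304 in 1/8. It was lower in each library at 18 cycles and in each fraction than in every library at 10 or 14 cycles. Setdb1 shares 249 and 75 bases of exons with Gm37500 and Cers2 on the opposite strand. Ehmt2 (ENSMUSG00000013787, chromosome 17 from 34898469 to 34914052), which encodes G9a, had 3.36 and 1.09 CPM at 10 cycles, 2.92 and 1.45 at 14, 7.29 and 0 at 18, 0.497 and 3.34 in 1/2, 2.48 and 4.75 in 1/4, and 0.0877 and 5.88 in 1/8. These rest on 0 to 39 counts. The library at 0 allows up to 1.76 CPM by a floor of 3 counts, and up to 2.25 CPM by its Wilson interval. Both libraries at 18 cycles and both of 1/8 differed from each other by more than their Wilson intervals, so no difference between groups in Ehmt2 was detectable at this depth on the CPM scale.

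Setd2 (ENSMUSG00000044791, chromosome 9 from 110532597 to 110618633) encodes the enzyme that trimethylates H3K36. It had 224 and 221 CPM at 10 cycles, 195 and 175 at 14, 87.2 and 58.0 at 18, 50.4 and 88.1 in 1/2, 100.5 and 97.4 in 1/4, and 107 and 197 in 1/8. Whole oocytes at 10 and 14 cycles did not overlap with those at 18 cycles, with 1/2 or with 1/4, whereas replicate 2 of 1/8 reached the level of the oocytes at 14 cycles.

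The flavin-dependent demethylase genes behaved differently from each other. Kdm1a (ENSMUSG00000036940, chromosome 4 from 136550540 to 136602723), which encodes LSD1, had 56.5 and 72.0 CPM at 10 cycles, 45.3 and 42.6 at 14, 43.8 and 172 at 18, 27.3 and 39.5 in 1/2, 19.9 and 21.2 in 1/4, and 43.0 and 44.1 in 1/8. Its value of 172 (95% Wilson interval 154 to 193, on 294 counts) stood far above every other library, and the lowest were both of 1/4. Kdm1b (ENSMUSG00000038080, chromosome 13 from 47043499 to 47085279), which encodes LSD2, had 312 and 183 CPM at 10 cycles, 344 and 353 at 14, 268 and 114 at 18, 95.9 and 148 in 1/2, 291 and 306 in 1/4, and 186 and 164 in 1/8. Oocytes of the same cycle number differed widely at 10 and 18 cycles. Exons of Kdm1b share 505 bases (9.19% of its exons) with Dek on the opposite strand, and without strand the reads there cannot be told apart.

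Of the JmjC demethylase genes, Kdm4a was close in CPM to Kdm1a and Kdm5b far lower. Kdm4a (ENSMUSG00000033326, chromosome 4 from 118136957 to 118180043), which acts on H3K9 and H3K36, averaged 66.7 ± 8.05 CPM at 10 cycles, 68.2 ± 6.23 at 14, 39.0 ± 14.4 at 18, 33.5 ± 13.2 in 1/2, 50.2 ± 3.86 in 1/4 and 56.5 ± 17.6 in 1/8 (SD, n = 2 each). Kdm5b (ENSMUSG00000042207, chromosome 1 from 134560171 to 134635285), which acts on H3K4, had 14.2 and 11.8 CPM at 10 cycles, 8.91 and 6.30 at 14, 3.65 and 5.86 at 18, 3.23 and 1.11 in 1/2, 2.48 and 4.16 in 1/4, and 15.1 and 14.7 in 1/8. Both libraries of 1/8 were above all the others, while the libraries at 18 cycles held 11 and 10 counts of Kdm5b and those of 1/2 held 13 and 4.

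**Figure D2:**
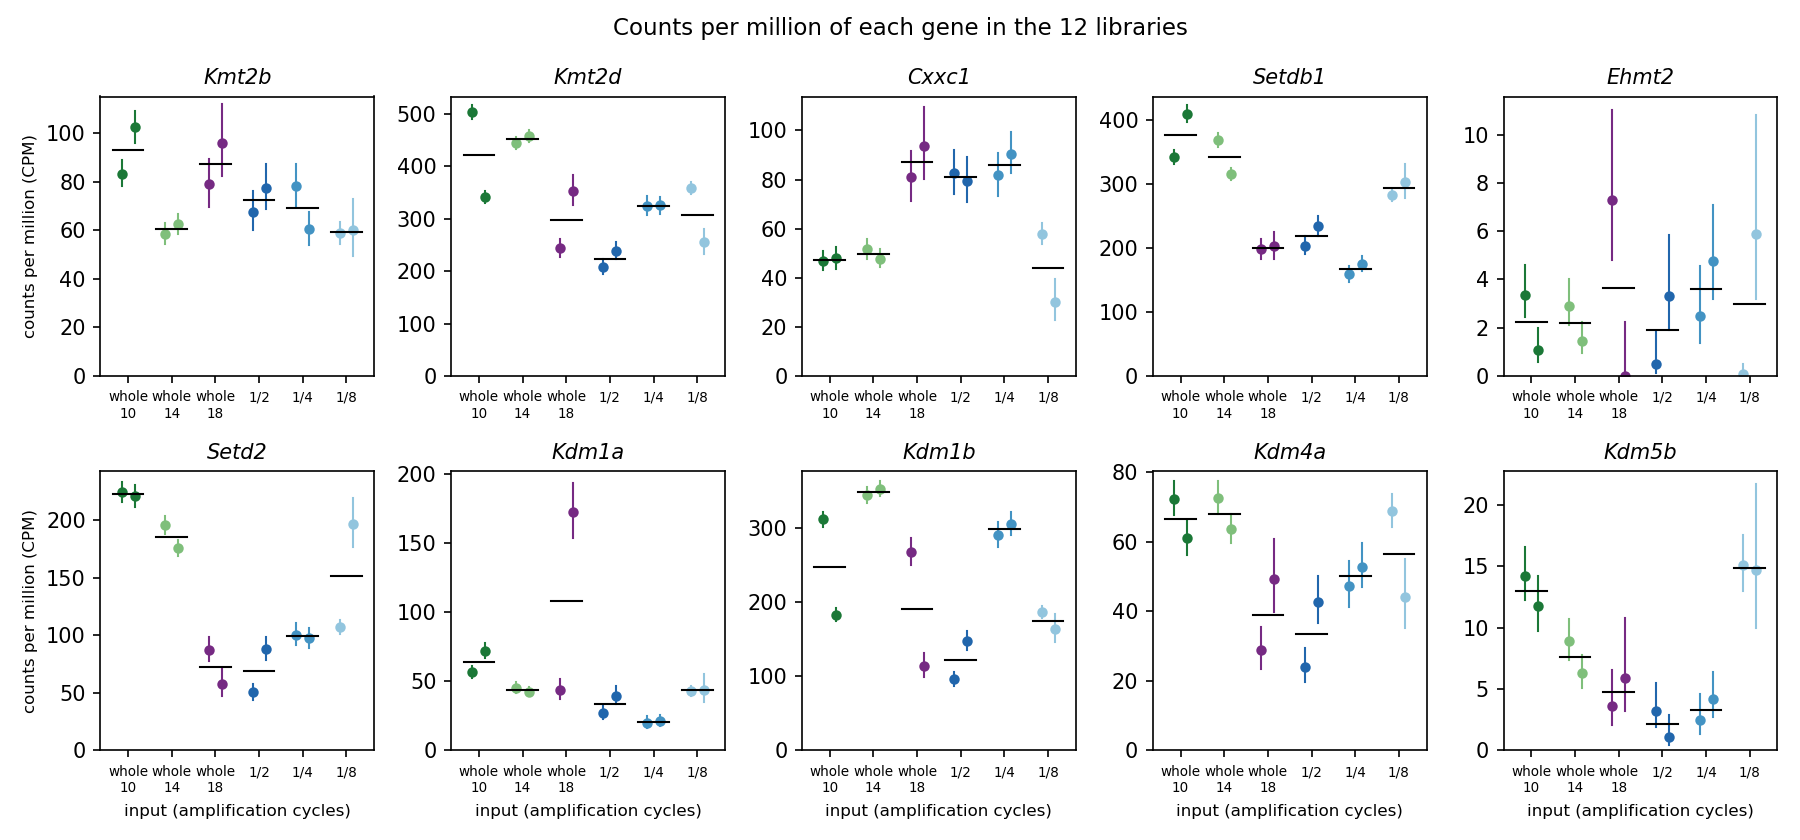
CPM of each gene by group, 1 point per library with its 95% Wilson interval, and the mean of 2 libraries as a black line; the horizontal axis gives the whole oocytes by amplification cycles and the fractions by input. Cxxc1 lies at 80.9 and 93.8 CPM at 18 cycles against 46.8 and 48.0 at 10, Setd2 at 87.2 and 58.0 against 224 and 221, and a lone point of Kdm1a at 172 stands out at 18 cycles.

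Between 14 and 10 cycles, 0 of the 10 genes passed the test, against 0% of the 17532 genes tested. The test was edgeR's quasi-likelihood test on the counts with size factors by the median ratio over all genes, and a gene was called at a Benjamini-Hochberg adjusted p under 0.01. Kmt2b alone had an unadjusted p under 0.05 (log2 fold change -0.65, standard error or SE 0.22), and DESeq2 called 0 of the 10. Among all 17532 genes tested, 514 had such a p. The median log2 fold change was -0.12 over the 10 genes and 0.01 over all genes tested.

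Between 18 and 10 cycles, Cxxc1 was higher and Setd2 lower, and the other 8 genes did not pass the threshold. Cxxc1 rose from 47.4 ± 0.825 to 87.3 ± 9.11 CPM (SD, n = 2 each), and its fitted log2 fold change with median ratio size factors, which scale differently from CPM, was 1.14 (SE 0.22, edgeR adjusted p = 0.00254). Setd2 fell from 223 ± 2.41 to 72.6 ± 20.6 CPM, with a fitted log2 fold change of -1.36 (SE 0.21, edgeR adjusted p = 0.000753) that turned to 0.94 with ERCC size factors. Each was outside the other group's range in 2 of 2 oocytes. So were Setdb1, Kdm4a and Kdm5b, which did not pass, and the share over all genes was not counted. A call was no rarity in this comparison: 23.1% of the 17532 genes were called, 12.2% higher and 10.9% lower, so 2 of 10 is close to the background. Over all genes tested the median log2 fold change was -0.30, and relative to it Cxxc1 stood at 1.44 and Setd2 at -1.06. The members' own median was -0.17, with 4 genes above 0 and 6 below.

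Of the 8 genes that did not pass, Setdb1 and Kdm5b had an unadjusted p under 0.05. Among all 17532 genes tested, called ones included, 7995 had such a p. Setdb1 had a log2 fold change of -0.65 (SE 0.21, edgeR adjusted p = 0.034), which turned to 1.56 with ERCC size factors. Kdm5b had -1.24 (SE 0.46, edgeR adjusted p = 0.0589), which turned to 0.98 with ERCC size factors. Kdm1a had a log2 fold change of 1.02 with a standard error of 0.50 (-0.38 without replicate 2 at 18 cycles), and Ehmt2 1.06 with a standard error of 1.02. Ehmt2 rests on 22 and 0 counts at 18 cycles, and its value ran from -7.461 to 3.594 in the alternatives. Kmt2b, Kmt2d, Kdm1b and Kdm4a lay between -0.53 and 0.17, and those below 0 turned to 1.97 (Kmt2d), 2.30 (Kdm1b) and 1.64 (Kdm4a) with ERCC size factors. DESeq2 called the same count of 2, Cxxc1 and Setd2, where it called 29.4% of all genes.

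Limits of these calls were the following. Without replicate 1 or replicate 2 at 10 cycles, Cxxc1 had a log2 fold change of 1.07 or 1.19 and no longer passed (edgeR adjusted p = 0.0258 or 0.0203, over a range of 1.16e-06 to 0.0258 in all alternatives). With ERCC size factors the median of all genes moved to 1.96, 8348 genes were higher and 0 lower, and Setd2 turned to a log2 fold change of 0.94 (edgeR adjusted p = 0.0694, range 4.41e-08 to 0.0694), while Cxxc1 was higher at 3.34. With TMM scaling, 1830 genes were higher and 2351 lower, against 2131 and 1915 with the median ratio, and both genes kept their calls.

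Between 18 and 14 cycles, which uses the same 18-cycle libraries, the call went again to Cxxc1 and Setd2. Cxxc1 had a log2 fold change of 1.10 (SE 0.22, edgeR adjusted p = 0.00295) and Setd2 of -1.06 (SE 0.21, edgeR adjusted p = 0.00292), or 1.26 with ERCC size factors. Their groups did not overlap, but neither did those of the other genes except Ehmt2 and Kdm1a. The share without overlap over all genes was not counted. The background was 23.3% of 17532 genes, 12.5% higher and 10.8% lower. Kmt2b (log2 fold change 0.82, edgeR adjusted p = 0.018) and Kdm1a (1.61, edgeR adjusted p = 0.0304) did not pass here but did with DESeq2 and with no filter on low counts. Without replicate 1 at 14 cycles the adjusted p from edgeR was 0.0275 for Cxxc1 and 0.0365 for Setd2, and without replicate 2 it was 0.0457 and 0.0169, so neither passed. Without replicate 1 at 18 cycles the log2 fold change of Kmt2b was 1.05, and without replicate 2 it was 0.59. Without replicate 2 at 18 cycles, the library at 172 CPM, Kdm1a was at 0.21 (edgeR adjusted p = 0.545). With ERCC size factors 2 genes were lower and 8398 higher among all tested.

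GC content was set beside these changes. The coding transcript of Cxxc1 holds 58.4% G and C and that of Setd2 44.3%, around a median of 49.9% over 13852 protein-coding genes tested. Across the 10 genes Spearman's rho between GC content and the log2 fold change was 0.67 for 18 against 10 cycles, and across the 13852 genes it was 0.38. Genes of the same libraries are not independent replicates, and the part of GC content in these results was not tested. Gene counts at 18 cycles were 1706478 and 3017069 against 9189672 or more at 10 and 14 cycles, and the summed oocyte markers were at 8725.4 and 7047.3 CPM against 27334.2 or more. The granulosa and cumulus markers were at 74.2 and 27.0 CPM against 75.5 or more. The part of depth and of the markers was not tested either, and this design does not separate the number of cycles from the oocyte or its preparation.

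Input was compared at 18 cycles, with each fraction set against whole oocytes in a fit of 8 libraries that tested 14788 genes. All fraction comparisons share the same whole oocytes, and each lysate was diluted to all 3 fractions. With size factors by the median ratio, which compare the makeup of the RNA and not its amount, Kdm1a in 1/4 was the only gene of the 10 that passed, among the 3 fractions against whole oocytes. Kdm1a had 19.9 and 21.2 CPM in 1/4 against 43.8 and 172 in the whole oocytes, without overlap, a log2 fold change of -2.55 (SE 0.47, edgeR adjusted p = 0.00513). Kmt2b, Setdb1, Setd2 and Kdm1b did not overlap there either and were not called. Of all genes tested 0.467% were called in 1/4, 0.426% as lower. This call rested on replicate 2 of the whole oocytes: without it the log2 fold change was -1.17 (edgeR adjusted p = 0.248, the highest of a range starting at 7.6e-09). Kdm1a was also past the threshold no more without replicate 1 or 2 of 1/4 (edgeR adjusted p = 0.057 or 0.0916), without replicate 1 or 2 of 1/2 (0.0144 or 0.0141) and without replicate 1 of 1/8 (0.0135). With the 10-cycle oocytes as reference, an alternative added once the values were known, the log2 fold change of Kdm1a was -1.53 (edgeR adjusted p = 0.0152), and the gene called in 1/4 was instead Setdb1, lower at -1.06 (edgeR adjusted p = 0.00198; background 9.99%).

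In 1/2, 0 of the 10 genes passed, against 0.115% of all genes tested. By DESeq2 the count was also 0, and 2 genes had an unadjusted p under 0.05, Kdm1a (log2 fold change -1.76, SE 0.46) and Kdm1b (-0.68, SE 0.32). Among all 14788 genes tested, 1942 had such a p. The median of the 10 was -0.39, with 9 genes below 0, where the median of all genes was -0.01. Kdm1a passed without replicate 1 of the whole oocytes, the fit in which the reference was the library at 172 CPM alone, and with no filter on low counts. Without replicate 2 it was at -0.37 (edgeR adjusted p = 0.762).

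In 1/8, 0 of the 10 genes passed, although 15.7% of all genes tested did, 1281 lower and 1047 higher. Cxxc1 came closest, with 57.8 and 30.0 CPM against 80.9 and 93.8 in whole oocytes, a log2 fold change of -1.15 (SE 0.33, edgeR adjusted p = 0.0127). Kdm1a followed at -1.53 (SE 0.45, edgeR adjusted p = 0.0148), with groups that overlapped, and was at -0.16 without replicate 2 of the whole oocytes (edgeR adjusted p = 0.812). Setd2 had a log2 fold change of 0.86 (SE 0.34) and Kdm5b of 1.47 (SE 0.68), and with Kmt2b at -0.76 (SE 0.31) they made 5 genes with an unadjusted p under 0.05. Among all 14788 genes tested, 5801 had such a p. DESeq2 called 2 of the 10, Cxxc1 and Kdm1a, both lower. All of the 10 genes but Kmt2d and Kdm1b lay on the other side of 0 here than in 18 against 10 cycles. The comparisons share the whole oocytes at 18 cycles, which enter with opposite sign. With the 10-cycle oocytes as reference, added once the values were known, the log2 fold change of Cxxc1 in 1/8 was -0.01 and that of Setd2 -0.51, and 0 of the 10 genes passed, as did 0 of all 18041 genes tested in that fit.

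The 1/8 and 1/2 libraries come from the same lysates and do not involve the whole oocytes. Which lysate gave which library is not in the labels, so the test was unpaired and its p-values treat related libraries as independent. Between them 0 of the 10 genes passed, against 5.94% of genes tested, and 3 had an unadjusted p under 0.05. Among all 14788 genes tested, 4287 had such a p. Kdm5b had 15.1 and 14.7 CPM in 1/8 against 3.23 and 1.11 in 1/2, a log2 fold change of 2.58 (SE 0.70, edgeR adjusted p = 0.0168), and DESeq2 called this gene, 1 of the 10. Cxxc1 was at -1.01 (SE 0.33, edgeR adjusted p = 0.0428) and Setd2 at 0.97 (SE 0.34, edgeR adjusted p = 0.06). Here 8 of the 10 genes were above 0, with a median of 0.28 against 0.04 over all genes. For 1/8 against 1/2 Spearman's rho of the log2 fold change with GC content was -0.71 across the 10 genes and -0.38 across 12265 protein-coding genes, and its part was not tested.

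**Figure D3:**
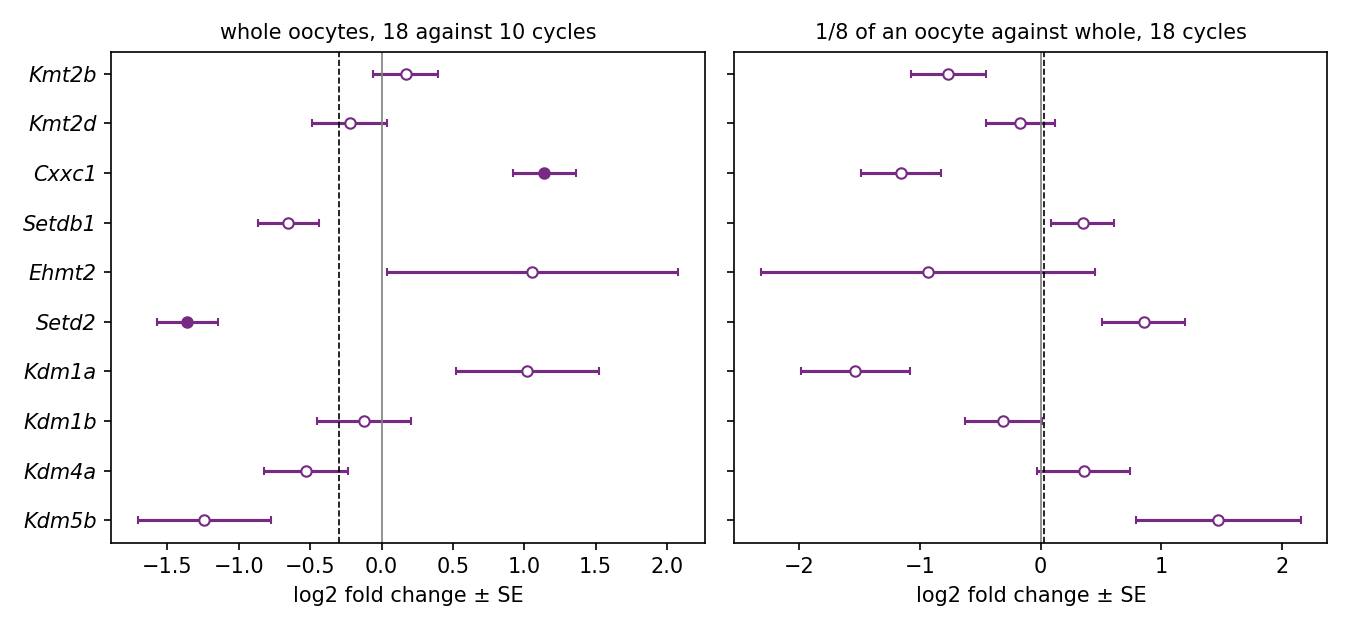
Log2 fold change of each gene with its standard error (bars) from edgeR with median ratio size factors, for whole oocytes at 18 against 10 cycles (left) and 1/8 against whole oocytes at 18 cycles (right). Filled points passed an adjusted p of 0.01, and the dashed line is the median of all genes tested, -0.30 on the left and 0.03 on the right; Cxxc1 (1.14) and Setd2 (-1.36) are filled on the left and none on the right, and with ERCC size factors Setd2 on the left turned to 0.94.

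Equal spike-in was added to each diluted lysate, so a fall relative to it was set by the design. Relative to the spike-in, the log2 fold changes of the 10 genes were below 0 in each fraction against whole oocytes at 18 cycles. Their median fell with the input, though not every gene did. With ERCC size factors 9 of the 10 genes passed as lower when 1/2 was set against whole oocytes at 18 cycles (background 52.0%, 0 genes higher), all but Ehmt2 (log2 fold change -3.40, SE 1.17, edgeR adjusted p = 0.0104). In 1/4 (background 69.7%) and in 1/8 (background 87.5%) 10 of 10 were lower. Of these calls Ehmt2 in 1/4 was the least secure, called in 4 of 14 alternatives. DESeq2, the replicate block, total ERCC counts and the fit of all 12 libraries left 9 of 10, without Ehmt2 (background 64% to 70.8%). The median log2 fold change of the 10 was -2.32 in 1/2, -3.00 in 1/4 and -5.21 in 1/8, where that of all genes was -1.997, -2.69 and -4.92. Since the overall shift is this large, the genes are best compared with it. Kdm1a lay farthest below it, by -1.55 in 1/2, -2.38 in 1/4 and -1.34 in 1/8 on the log2 scale, but this place rested on replicate 2 of the whole oocytes. Without that library Kdm1a was at -2.79 in 1/2, above Kdm1b at -3.54, and at -5.45 in 1/8, above Cxxc1 at -6.28, and only in 1/4 was it still the lowest (-4.29). Kdm5b in 1/8 lay above it by 1.504, at -3.42 (SE 0.90, edgeR adjusted p = 0.00046), and Setd2 by 0.75, at -4.17. Those departures are descriptions and were not tested as such.

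The same can be seen in counts per 1000 ERCC counts. Setdb1 had 372 and 235 in whole oocytes at 18 cycles, 89.6 and 80.4 in 1/2, 34.0 and 30.5 in 1/4, and 13.9 and 14.2 in 1/8. Its mean in the fractions was 28.0%, 10.6% and 4.63% of that in whole oocytes at 18 cycles. Kmt2d had 456 and 409 in whole oocytes, and 20%, 14.6% and 3.41% of their mean in 1/2, 1/4 and 1/8. Kdm1b broke the order, with 42.1 and 50.7 in 1/2 but 62.3 and 53.1 in 1/4, and so did Kdm5b, with 0.532 and 0.722 in 1/4 and 0.743 and 0.683 in 1/8. For the 10 genes the percentages of the 18-cycle mean were 9.09 to 28.0 for 1/2, 2.82 to 18.2 for 1/4 and 1.48 to 10.5 for 1/8. Each of these ranges lay below the fraction of an oocyte put in, and the cause was not tested. These percentages depend on whole oocytes that differed from each other, as for Kdm1b (502 and 132) and Kdm1a (81.9 and 199), which set several of these limits.

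For the count of calls, the reference mattered most in 1/2 and 1/4. In 1/8 the median log2 fold change of all genes moved too, from -4.92 to -2.82 with the 10-cycle reference. For each gene the mean per 1000 ERCC counts was higher in whole oocytes at 18 cycles than at 10 cycles. It stood at 152% to 923% of the 10-cycle mean, with a median of 342%. The upper limit is that of Ehmt2, which had 13.7 and 0 at 18 cycles, so this limit rests on replicate 1 alone. Single oocytes could differ, as in Setd2 with 163 and 67.2 at 18 cycles against 72.5 and 79.5 at 10. Cxxc1, with one of the largest differences, had 15.1 and 17.3 at 10 cycles, 17.9 and 16.9 at 14, and 151 and 109 at 18. The ERCC counts of the 18-cycle libraries were 1611 and 1474, against 25528 or more at 10 and 14 cycles. With the 10-cycle oocytes as reference, added once the values were known, 0 of the 10 genes were called in 1/2 (background 8.67%), where Cxxc1 was at a log2 fold change of 1.19. In 1/4 4 were lower (background 8.62%), namely Setdb1, Kdm1a, Kdm5b and Setd2, and in 1/8 all but Ehmt2 were, 9 of 10 (background 74.3%). On that reference the percentages of the 10 genes had a median of 59.2 in 1/2, 42.7 in 1/4 and 10.6 in 1/8. In 1/2 against whole oocytes at 18 cycles, fewer of the 10 genes passed as lower without replicate 1 of the whole oocytes. Setdb1, Setd2, Kdm1b and Kdm5b lost their calls there. Fewer of all genes tested passed there too, and their median log2 fold change was -1.370, against -1.997 with no library left out. Without replicate 2 of 1/2, Kmt2b, Cxxc1, Setdb1 and Kdm5b lost their calls. Again fewer of all genes tested passed, and their median log2 fold change was -1.839. In 1/4 Kdm1b was lost without replicate 1 of the whole oocytes (0.058) and Kdm5b without replicate 1 or 2 of 1/4 (0.0223 or 0.0172). Ehmt2 in 1/4 was lost without replicate 1 of the whole oocytes (0.323), without replicate 1 or 2 of 1/2 (0.0109 or 0.0104) and without replicate 1 or 2 of 1/4 (0.0676 or 0.0422). In 1/8 only Ehmt2 was lost, without replicate 1 of the whole oocytes (0.692).

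**Figure D4:**
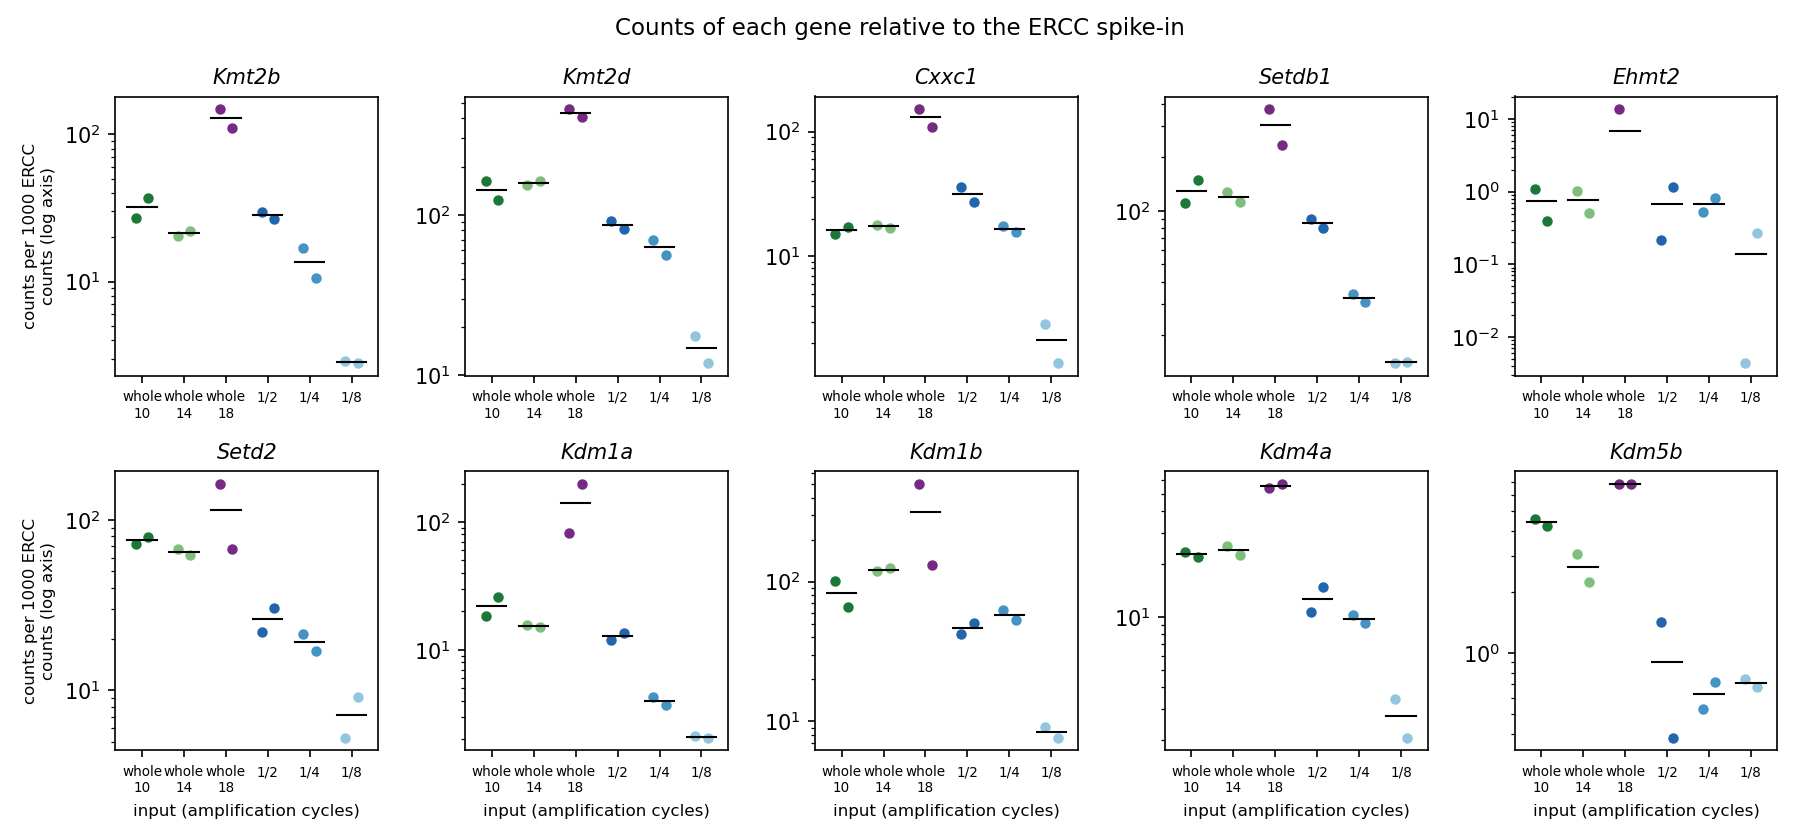
Counts of each gene per 1000 ERCC counts on a log axis, 1 point per library and the mean of 2 libraries as a black line, by amplification cycles for whole oocytes and by input for the fractions. Every gene has its highest mean in whole oocytes at 18 cycles, as Setdb1 with 372 and 235 against 13.9 and 14.2 in 1/8; the Ehmt2 library at 0 counts is not drawn but enters its mean.

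Other genes of these pathways, 78 in 7 lists that leave out the 10, were described in the same fits. With the median ratio, 8 rose and 6 fell between 10 and 18 cycles among 76 tested, where 23.1% of all genes were called, and the median log2 fold change was 0.31 against -0.30 over all genes. In 1/8 against whole oocytes 1 was higher and 5 lower among 73 tested, where 15.7% of all genes were called. Between 14 and 10 cycles the count was 0 of 76 by edgeR.

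The core and partner subunits of COMPASS complexes were led in level per length by Dpy30 (171 CPM per kb). At 18 against 10 cycles 3 of 12 rose and 0 fell. Psip1, whose product LEDGF tethers chromatin complexes, had 210 and 271 CPM at 10 cycles and 724 and 1021 at 18, a log2 fold change of 2.13 (SE 0.26, edgeR adjusted p = 0.000236). The median of the 12 was 0.55. In 1/8 against whole oocytes 1 of 12 fell, again Psip1, with 262 and 448 CPM and a log2 fold change of -1.51 (SE 0.31, edgeR adjusted p = 0.00115). That call was lost without replicate 2 of the whole oocytes (adjusted p = 0.0158) and without replicate 1 of 1/8 (0.0266), and the log2 fold change of Psip1 was 0.61 with the 10-cycle reference added once the values were known. Among 8 other H3K4 methyltransferase genes, Kmt2c, the close relative of Kmt2d, was the most abundant per length (23.6 CPM per kb) and the only one called at 18 against 10 cycles. Kmt2c had 722 and 789 CPM at 10 cycles and 277 and 315 at 18, a log2 fold change of -1.09 (SE 0.21, edgeR adjusted p = 0.00232), which turned to 1.11 with ERCC size factors. It did not pass without replicate 1 or 2 at 10 cycles (adjusted p = 0.0119 or 0.0244).

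Of the 11 H3K9 methyltransferases and partners, 2 rose and 1 fell at 18 against 10 cycles. Suv39h2, a gene for an H3K9 methyltransferase and the most abundant of the list (94.4 CPM per kb), had 159 and 192 CPM at 10 cycles and 498 and 581 at 18, a log2 fold change of 1.88 (SE 0.22, edgeR adjusted p = 0.000191). In 1/8 against whole oocytes 2 of 10 tested fell and 0 rose. Trim28, the corepressor that recruits SETDB1, had 121 and 135 CPM in 1/8 and 490 and 938 in whole oocytes at 18 cycles, a log2 fold change of -2.70 (SE 0.36, edgeR adjusted p = 2.41e-05). Trim28 stood at 248 and 256 CPM at 10 cycles, 162 and 127 at 14, 126 and 250 in 1/2, and 110.5 and 131 in 1/4, so both whole oocytes at 18 cycles were above all the other libraries. With the added 10-cycle reference the log2 fold change of Trim28 in 1/8 was -0.92 (edgeR adjusted p = 0.255).

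Of the 11 genes listed under methyltransferases of H3K36, H3K79 and H4K20 outside Setd2, 2 rose, Nsd3 and Setd3, and 1 fell at 18 against 10 cycles. The substrate of each listed enzyme was not examined here. Dot1l, the H3K79 methyltransferase gene, was the most abundant per length (17.4 CPM per kb) and ranged from 111 to 200 CPM. Nsd3, an H3K36 methyltransferase gene, had 24.8 and 25.0 CPM at 10 cycles and 66.3 and 68.6 at 18, a log2 fold change of 1.69 (SE 0.23, edgeR adjusted p = 0.000379). In 1/8 Nsd3 had 33.9 and 32.3 CPM and a log2 fold change of -1.22 (SE 0.32, edgeR adjusted p = 0.00754). This second call was lost without either replicate of the whole oocytes (adjusted p = 0.0217 and 0.0342), of 1/4 (0.0141 and 0.014) or of 1/8 (0.0329 and 0.0354), and with the added 10-cycle reference the log2 fold change of Nsd3 was 0.47.

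Of the 9 partners of LSD1 and LSD2, 1 rose and 2 fell at 18 against 10 cycles. Hmg20b, a subunit of the CoREST complex around LSD1, had 18.45 and 24.8 CPM at 10 cycles, 72.6 and 117 at 18, and 36.2 and 32.9 in 1/8. Its log2 fold change was 2.40 at 18 against 10 cycles (SE 0.33, edgeR adjusted p = 0.000394) and -1.655 in 1/8 against whole oocytes (SE 0.35, edgeR adjusted p = 0.00133). The call for Hmg20b at 18 cycles was lost without replicate 1 at 10 cycles (adjusted p = 0.0103). The call in 1/8 was lost without replicate 2 of the whole oocytes (0.0271) and without replicate 1 or 2 of 1/8 (0.012 or 0.0128), and the log2 fold change of Hmg20b was 0.735 with the added 10-cycle reference. Hdac2, the deacetylase of the same complex and at the head of the list with Glyr1 and Hmg20b close by (20 CPM per kb), ranged from 67.3 to 109 CPM.

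Among 19 JmjC demethylases other than Kdm4a and Kdm5b, 18 were tested and 0 passed at 18 against 10 cycles. Their median log2 fold change was 0.29 against -0.30 over all genes. Kdm6b, an H3K27 demethylase gene, was the most abundant per length (60.3 CPM per kb), with 310 and 364 CPM at 10 cycles and 381 and 516 at 18. At 18 against 14 cycles, where 12.5% of all genes rose, 1 of 18 did, Kdm6b, with a log2 fold change of 0.99 (SE 0.24, edgeR adjusted p = 0.0084), and whether this call rests on any 1 library was not tested. Among 8 histone arginine methyltransferases 7 were tested, and 0 rose and 1 fell at 18 against 10 cycles. Prmt2 was the most abundant (31.7 CPM per kb). Prmt7 had 60.5 and 55.2 CPM at 10 cycles and 29.2 and 19.3 at 18. Its log2 fold change was -0.98 (SE 0.24, edgeR adjusted p = 0.00834), which turned to 1.31 with ERCC size factors. The gene was called in 6 of 13 alternatives. This call of Prmt7 did not hold without replicate 1 or 2 at 10 cycles (adjusted p = 0.0373 or 0.0343), 1 or 2 at 14 cycles (0.0232 or 0.0246) or 2 at 18 cycles (0.0214).

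Likeness of pattern was measured by Pearson's r of log2(CPM + 1) over the 12 libraries, against 8302 protein-coding genes with a mean of at least 10 CPM. The gene most like Cxxc1 was Tcf3 (r = 0.984, and 0.971 over 10 libraries without the 2 farthest from the median), and that most like Setd2 was Cltc (0.981 and 0.974). Kdm1b went with Zbtb34 (0.979 and 0.982), Kdm1a with Efnb2 (0.976 and 0.928), Setdb1 with Ankrd49 (0.967 and 0.963), Kmt2d with Sap130 (0.958 and 0.925), Kdm5b with Nek7 (0.954 and 0.949) and Kdm4a with Adamtsl1 (0.953 and 0.927). Values were lower for Ehmt2 with Srsf6 (0.895 and 0.866) and Kmt2b with Cebpb (0.857 and 0.849). Setd2 had 373 genes with r over 0.9 and Cxxc1 238, while Kmt2b and Ehmt2 had 0. Among the 10 genes themselves the highest r was 0.892, between Kmt2d and Kdm4a, and the lowest -0.846, between Cxxc1 and Setd2. The 12 libraries come from 8 oocytes, share groups and differ in depth, so these values describe the libraries.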

How the data were processed

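The counts used are those the authors deposited, raw and per gene. Before that, reads had been cut with Cutadapt, placed by STAR on GRCm38 with the spike-in added, and assigned by HTSeq under its defaults. The submitters' processing notes name cutadapt 2.5, STAR 2.7.2a and HTSeq 0.9.1. Reads on no feature (6.90% to 10.8% of reads) and ambiguous reads (2.64% to 4.53%), given as separate lines, stayed out of totals and tests. The Nextera kit does not keep strand.

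CPM was the count over all gene counts, and levels between genes were divided by the kb of merged exons. Tests used edgeR 4.0.16 in R 4.3.3 (quasi-likelihood) on all genes reaching 5 counts in 2 or more libraries, in a fit of the 6 whole oocytes and a fit of the 8 libraries at 18 cycles, with median ratio or ERCC size factors. Adjustment was by Benjamini-Hochberg over all genes tested, with a threshold of 0.01. Standard errors are the absolute log2 fold change over the square root of F. All 10 genes passed the filter in both fits. DESeq2 1.42.0, other filters and scalings, a replicate block, all 12 libraries in 6 groups and leaving out each library were the alternatives. The reference of whole oocytes at 10 cycles was added after the values had been seen. The fits were tested on simulated data.

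The genes and lists were chosen with earlier results of these data known. Named besides the 10 are, from each pathway list, the gene with the highest mean CPM per kb and the called gene with the largest absolute log2 fold change at 18 against 10 cycles and in 1/8 against whole oocytes; from each marker list the most abundant gene and defining markers at 0; and for each of the 10 the most alike gene. GC content was that of the longest coding transcript.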

Additional observations from a re-analysis of the deposited data

How the results depend on the processing

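Counts of members called follow as main value and then alternatives, and for each the cause was not tested. The share of all genes called is given first for the cycle comparisons and last for the fractions. With a library left out a group kept 1 library, and the share of all genes called changed as well. Counts from those fits are therefore no trait of the 10 genes alone. At 18 against 10 cycles this share was 23.1%, then 47.6% with ERCC size factors and 18.5% with no filter. At 18 against 14 cycles it was 23.3%, then 29.4% with DESeq2, 18.8% with no filter, 47.9% with ERCC and 21.6% with all 12 libraries. At 18 against 10 cycles the count of 2 became 8 with ERCC size factors, all higher, and was 3 with no filter and 1 to 3 with a library left out. At 18 against 14 cycles it was 2, then 4 with DESeq2, 4 with no filter, 8 with ERCC size factors, 3 with all 12 libraries in 6 groups (Kdm1a added), and 0 to 4 with a library left out. In 1/2 with the median ratio it was 0, then 1 with no filter, 3 with whole oocytes at 10 cycles as the reference (Cxxc1 higher, Kdm5b and Setd2 lower; chosen after seeing the data), and 0 to 1 with a library left out. In 1/4 it was 1, then 0 to 1 with a library left out, and 1 with that added reference, which called Setdb1 lower and not Kdm1a. In 1/8 it was 0, then 2 with DESeq2, 2 with no filter, 2 with all 12 libraries in 6 groups, 1 with at least 10 counts in every library, and 0 to 1 with a library left out. For 1/8 against 1/2 it was 0, then 1 with DESeq2, 1 with no filter and 1 with all 12 libraries. With ERCC size factors the 9 genes of 1/2 became 0 and the 10 of 1/4 became 4 against whole oocytes at 10 cycles, and 1/2 gave 5 to 10 with a library left out. Between 14 and 10 cycles it was 0 in every alternative run. The share of all genes called in 1/2 with the median ratio was 0.115%. It was 0.897% with no filter and 16.2% against whole oocytes at 10 cycles. In 1/8 the share was 15.7%, then 19.1% with DESeq2 and 11.6% with no filter. It was 17.1% with all 12 libraries and 26.2% with at least 10 counts in every library. For 1/8 against 1/2 it was 5.94%, then 9.7% with DESeq2, 5.52% with no filter and 8.09% with all 12 libraries.

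With the replicate number as a block, 1 member, Cxxc1, was called in 1/8 against whole oocytes, where 17.9% of all genes were called. With ERCC in 1/4 Ehmt2 was not called, leaving 9 of 10 (background 68.7%), while no other call of the 10 genes changed. Deviations of same-numbered libraries correlated between -0.18 and 0.21, so the numbers show no pairing, and a small effect of the shared lysates is not excluded.

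Signs turned with ERCC size factors in place of the median ratio. The median log2 fold change of all genes moved too, from -0.299 to 1.96 at 18 against 10 cycles and from -0.298 to 1.97 at 18 against 14. Setd2 stayed below that median in both. At 18 against 10 cycles the log2 fold changes became 1.97 for Kmt2d, 1.56 for Setdb1, 0.94 for Setd2, 2.30 for Kdm1b, 1.64 for Kdm4a, 0.98 for Kdm5b, 1.11 for Kmt2c and 1.31 for Prmt7. At 18 against 14 cycles they became 1.89 for Kmt2d, 1.77 for Setdb1, 1.26 for Setd2, 1.80 for Kdm1b, 1.65 for Kdm4a and 1.79 for Kdm5b. Against whole oocytes at 10 cycles, Cxxc1 in 1/2 turned to 1.01 with the median ratio and 1.19 with ERCC, and in 1/4 to 0.33 with ERCC. There Kmt2b in 1/2 turned to 0.027 and Ehmt2 in 1/4 to 0.20 with ERCC, and in 1/8 with the median ratio Setd2 turned to -0.51, Psip1 to 0.61, Nsd3 to 0.47 and Hmg20b to 0.735. Without replicate 1 of whole oocytes at 18 cycles, Ehmt2 turned to 8.244 in 1/4 and 5.370 in 1/8 with ERCC (left-out libraries gave -4.234 to 8.244 and -10.145 to 5.370), values set by a reference of a lone library at 0 counts and no measure of a fold. Further signs turned among values called in neither fit and are not all given. Where a group kept 1 library, it was taken to vary like the other groups.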

Other observations

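Several relatives of the genes described, chosen here after their values were seen, were at or near 0 in these oocytes. Prmt8 and the Y-linked Uty had 0 counts in all 12 libraries. Setd7, an H3K4 methyltransferase gene, had counts in 4 of 12 libraries, at most 8, and Kmt2a, a relative of Kmt2b, had at most 19 counts in any library (mean 0.990 CPM). The HP1 gene Cbx3 had at most 13 counts, while Cbx1 averaged 184 CPM and Cbx5 42.2. Kdm5d, which also lies on the Y chromosome, had counts in all 12 libraries (at most 71, mean 3.22 CPM) although the oocytes came from a female, and its X-linked relative Kdm5c averaged 39.0 CPM. Whether reads of Kdm5c were counted for Kdm5d was not tested.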
